A study of Mustela putorius furo with 20 samples.

Results

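*FABP7*, *FABP5*, *FABP3* and *DBI* encode small cytosolic proteins that carry fatty acids or their acyl-CoA esters, and they were followed here in the outer subventricular zone (oSVZ) of the ferret (*Mustela putorius furo*) brain. *FABP7* was chosen because it differed between gyrus and sulcus at postnatal day 5 (P5) in these same libraries, and the other genes were listed with it by relatedness of function. Of the 4 genes, 3 had a row under their own name among the 32057 genes counted, namely *FABP7* (ENSMPUG00000014466), *FABP3* (ENSMPUG00000015436) and *DBI* (ENSMPUG00000000945). *FABP5* was not analysed here. All 3 genes with a row were among the 12669 genes that passed the filter on low counts.

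Fatty acid-binding proteins hold a long-chain fatty acid in a barrel-shaped pocket and move it through the cytosol to membranes, enzymes and nuclear receptors. *FABP7*, also known as brain lipid-binding protein, is a classical marker of radial glia, the progenitors and migration scaffold of the developing cortex, and binds polyunsaturated fatty acids such as docosahexaenoic acid. *FABP5*, the epidermal form, and *FABP3*, the heart form, are found in neural cells as well. *DBI*, the diazepam-binding inhibitor or acyl-CoA-binding protein, belongs to another protein family, buffers acyl-CoA esters and gives rise to peptides that act on GABA-A receptors.

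The oSVZ was cut out by laser from Nissl-stained sections below the coronal gyrus (CG) and below the suprasylvian sulcus (SSS) of the same ferret, in 5 animals at P15 and 5 other animals at P5. This gave 4 groups of 5 libraries, the P15 CG, the P15 SSS, the P5 CG and the P5 SSS, and each library pooled 50 sections of 1 region of 1 animal. No genotype, strain or treatment is named for any group, and the study relates P5 to the onset and P15 to the middle of cortical folding. Animals carry the numbers 1 to 5 within an age, and equal numbers at different ages are different animals.

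Assigned reads per library were 2618470 to 4095208 in the P15 CG, 2488477 to 3542289 in the P15 SSS, 2941880 to 3545754 in the P5 CG and 2785162 to 4277326 in the P5 SSS. One library stood apart: in the P15 SSS library of animal 4, 1371 of the tested genes had no read, against 49 to 366 such genes in the remaining P15 SSS libraries. In the P5 SSS libraries 244 to 825 had none. Radial glia markers were present throughout, among them *VIM*, which encodes vimentin (383 ± 74.3 CPM in the P15 CG and 507 ± 60.6 CPM in the P5 CG, mean ± SD, n = 5), and *SLC1A3*, a glutamate transporter (1460 ± 131 and 971 ± 71.8 CPM in the same groups). Markers of other cells were also present, so the captured zone is a mixture. In such bulk samples fewer cells of a type and less RNA per cell cannot be told apart. Levels below are CPM, the reads of a gene scaled to the effective size of its library by TMM, a gene is called when its FDR is under 0.05 over all tested genes, and levels of different genes are not compared because CPM is not corrected for transcript length. The TMM factors of P15 animal 2 were the highest, at 1.132 in the CG and 1.126 in the SSS, against 0.8913 to 1.057 in the other libraries.

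*FABP7* was lower at P15 than at P5 in both regions. The P5 libraries compared here are those on which *FABP7* was chosen for its regional difference. That choice favours high values in the P5 CG and low values in the P5 SSS. The age tests of *FABP7* are thus not free of the choice, and its age difference is not compared between the regions. In the P15 CG, animals 1 to 5 had 2709, 1153, 2062, 3532 and 3575 CPM of *FABP7*, against 6946, 7209, 5953, 5067 and 5224 CPM in the P5 CG. Every P15 value lay below every P5 value, and the lowest was that of animal 2. The mean was 2606 ± 1026 CPM in the P15 CG and 6080 ± 974.9 CPM in the P5 CG (SD, n = 5 each), a 2.33-fold lower level at P15 (log2 fold change -1.22, SE 0.258, FDR = 0.00132, edgeR). Over all tested genes, 13.1% were called between ages in the CG, 5.72% as lower at P15, and 5.54% had P15 values wholly below the P5 values.

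In the P15 SSS, animals 1 to 5 had 2587, 884.9, 1284, 2583 and 2836 CPM of *FABP7*, against 4351, 4288, 4157, 3265 and 3982 CPM in the P5 SSS. The groups again did not overlap, and animal 2 at P15 was again the lowest. The P15 SSS averaged 2035 ± 885.1 CPM and the P5 SSS 4008 ± 439.1 CPM (SD, n = 5 each), which is 1.97-fold lower at P15 (log2 fold change -0.98, SE 0.257, FDR = 0.00888, edgeR). In the SSS 14.6% of all tested genes were called, 6.46% as lower at P15, and 4.44% had P15 values wholly below the P5 values. *FABP7* took 0.131 to 0.358% of the assigned reads in the P15 CG, 0.0997 to 0.295% in the P15 SSS, 0.493 to 0.684% in the P5 CG and 0.313 to 0.436% in the P5 SSS. The spread between animals was wider at P15, with a coefficient of variation of 39.4% in the P15 CG and 43.5% in the P15 SSS, against 16% in the P5 CG and 11% in the P5 SSS. Ranked by mean, the order was P5 CG, P5 SSS, P15 CG and P15 SSS. Neighbours in this order overlapped between the P15 CG and the P15 SSS and between the P5 SSS and the P15 CG. Overlap between the P5 CG and the P5 SSS is not assessed, because *FABP7* was chosen on that difference.

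*DBI* was not called between ages. Its levels in animals 1 to 5 were 1988, 811.4, 1545, 1778 and 1875 CPM in the P15 CG, against 1686, 1813, 1686, 1169 and 1609 CPM in the P5 CG. In the SSS they were 1631, 879.9, 1236, 1241 and 1458 CPM at P15, against 1390, 1030, 1285, 887.2 and 1255 CPM at P5. The ages overlapped in both regions, and animal 2 had the lowest value at P15 in each. Means were 1600 ± 469.8 CPM in the P15 CG and 1593 ± 248 CPM in the P5 CG (log2 fold change 0.01, SE 0.199, FDR = 0.987, edgeR). They were 1289 ± 282.1 CPM in the P15 SSS and 1169 ± 205.2 CPM in the P5 SSS (0.14, SE 0.199, FDR = 0.702). Ranked by mean, the order for *DBI* was P15 CG, P5 CG, P15 SSS and P5 SSS, with overlap between all neighbours.

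*FABP3* was not called between ages either. Animals 1 to 5 had 69.18, 54.09, 104.6, 119.2 and 104.3 CPM in the P15 CG, against 66.06, 111.6, 46.98, 68.5 and 86.33 CPM in the P5 CG. In the SSS they had 122.5, 67.99, 61.9, 193.4 and 125.4 CPM at P15, against 58.38, 128.8, 79.78, 91.54 and 61.41 CPM at P5. All groups overlapped, and the highest value of all, in the P15 SSS of animal 4, came from the library with many unread genes. The mean was 90.27 ± 27.36 CPM in the P15 CG and 75.9 ± 24.36 CPM in the P5 CG (log2 fold change 0.25, SE 0.29, FDR = 0.653, edgeR). In the SSS it was 114.2 ± 53.25 CPM at P15 and 83.99 ± 28.51 CPM at P5 (0.44, SE 0.29, FDR = 0.345). Without that library the SSS log2 fold change was 0.18 (SE 0.285, FDR = 0.747). With 1 animal left out the log2 fold change ranged from 0.123 to 0.455 in the CG and from 0.188 to 0.678 in the SSS, never called.

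**Figure D1:**
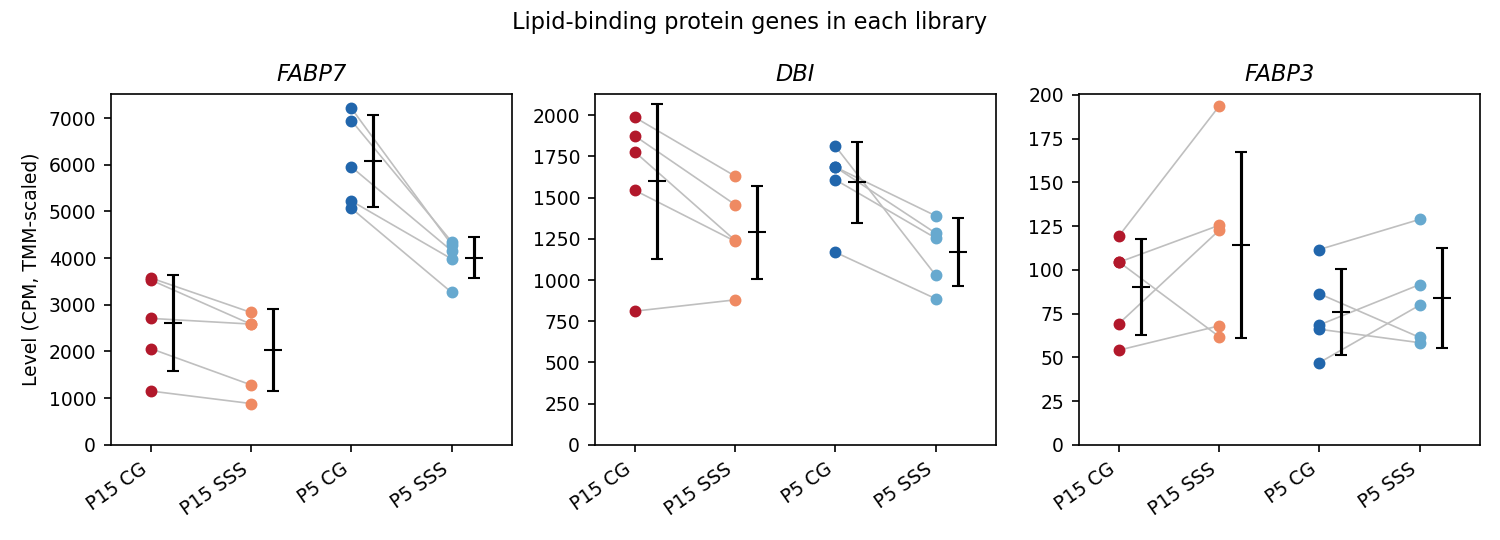
Level of *FABP7*, *DBI* and *FABP3* in each library (vertical axis, CPM after TMM scaling, with a separate scale for each gene). Points are animals, grey lines join the CG and SSS libraries of an animal, and black bars are the mean ± SD of 5 libraries. The *FABP7* points at P15 lie below those at P5 within each region, whereas the ages overlap for *DBI* and *FABP3*.

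Since *FABP7* fell and *DBI* was not called, their balance within a library was compared, a quantity that does not depend on how libraries are scaled. There were 0.503 to 0.749 reads of *DBI* for each read of *FABP7* in the P15 CG (median 0.704), against 0.231 to 0.308 in the P5 CG (median 0.251). In the SSS the ratio was 0.48 to 0.994 at P15 (median 0.63), against 0.24 to 0.32 at P5 (median 0.309). The ages did not overlap in either region. The mean ratio was 2.42-fold higher at P15 in the CG (log2 difference 1.28) and 2.36-fold higher in the SSS (log2 difference 1.24). Each gave p = 0.00794 in a 2-sided exact permutation test of 5 animals against 5, adjusted p = 0.00794 over both regions, which is the smallest p that this design can give. This test shares the *FABP7* reads of the age comparison above, the P5 reads on which *FABP7* was chosen among them. It is no separate evidence of the change of *FABP7*. Any gene with like levels at both ages tends to a higher ratio at P15, because *FABP7* was lower there. The lack of overlap and the p values thus show no change of *DBI* itself. The share of all genes with such a ratio was not computed.

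The ratio of *FABP3* to *FABP7* reads, given as a description, was 0.0256 to 0.0508 in the P15 CG, against 0.00792 to 0.0166 in the P5 CG. In the SSS it was 0.0443 to 0.077 at P15, against 0.0135 to 0.0301 at P5. The mean ratio was 2.97-fold higher at P15 in the CG and 2.8-fold higher in the SSS, again with no overlap between ages. The limits given for the *DBI* ratio hold for this ratio too.

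**Figure D2:**
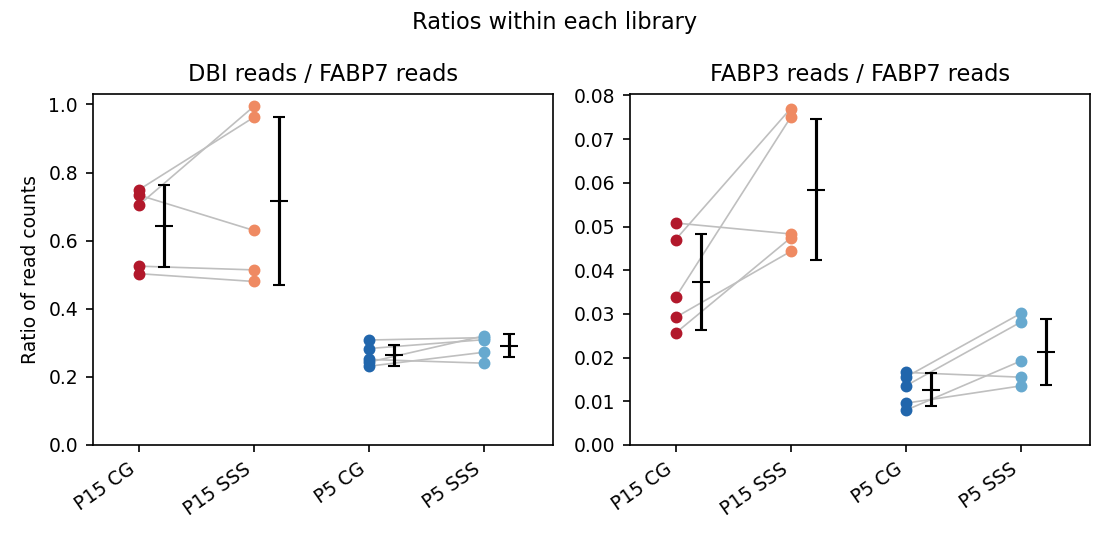
Reads of *DBI* (left) and of *FABP3* (right) for each read of *FABP7* within a library (vertical axes, ratio of read counts with 0.5 added to each count). Points are animals, grey lines join the CG and SSS libraries of an animal, and black bars are the mean ± SD of 5 libraries. Both ratios are higher in every P15 library than in any P5 library of the same region.

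The comparison of CG with SSS asks whether gyral and sulcal oSVZ differ within an animal. At P15, in animals other than those on which *FABP7* was chosen, its CG level divided by its SSS level was 1.05, 1.3, 1.61, 1.37 and 1.26 in animals 1 to 5. *FABP7* was on the CG side in 5 of 5 animals, as were 3.8% of all tested genes. Fitted with the animal as a block, the CG was 1.3-fold higher (log2 fold change 0.38, SE 0.0817, unadjusted p = 8.69e-05), but the gene did not pass over all genes (FDR = 0.305, edgeR), where 0.0158% were called. It passed with DESeq2 (FDR = 0.0492), with limma-voom (FDR = 0.0215) and with no filter on low counts (FDR = 0.000313). It did not pass in the other 17 alternatives. Among those was the edgeR fit of the P15 libraries alone (log2 fold change 0.375, SE 0.0899, FDR = 0.963). The reported fit takes its spread from all 20 libraries, so its SE and p also draw on the P5 libraries on which *FABP7* was chosen.

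Other values moved with region at P15 as well. The 2 genes called were *EOMES*, a marker of intermediate progenitors, with 16.2 ± 3.96 CPM in the P15 CG and 3.62 ± 3.46 CPM in the P15 SSS (log2 fold change 2.36, FDR = 0.0273, edgeR), and *SST*, the somatostatin gene of interneurons, with 419 ± 133 CPM in the P15 CG and 788 ± 156 CPM in the P15 SSS (-0.94, FDR = 0.0273). The number of genes called between regions ranged from 0 to 18 over the alternatives. Of 30 ribosomal protein genes, 4 had a negative log2 fold change of CG over SSS (median 0.132). Log2 fold changes were positive for 11 of 14 radial glia markers (median 0.094) and 10 of 12 astrocyte markers (median 0.197). Over all tested genes the median at P15 was 0.033. The part of these differences in that of *FABP7* was not tested.

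*DBI* had CG to SSS ratios of 1.22, 0.922, 1.25, 1.43 and 1.29 at P15, above 1 in 4 of 5 animals. The log2 fold change was 0.28 (SE 0.0972, unadjusted p = 0.00912, FDR = 0.9997, edgeR). *FABP3* ran the other way in most animals, with ratios of 0.565, 0.796, 1.69, 0.616 and 0.832 and a log2 fold change of -0.28 (SE 0.217, FDR = 0.9997). That value rested on single animals, at -0.54 without P15 animal 3, -0.15 without P15 animal 1 and -0.17 without P15 animal 4. Neither gene passed the test.

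At P5 the values are a description, since *FABP7* was chosen on them. The CG to SSS ratio of *FABP7* was 1.6, 1.68, 1.43, 1.55 and 1.31 in animals 1 to 5. At P5 4.85% of all tested genes were on the CG side in 5 of 5 animals, and 0.0395% were called. Of 30 ribosomal protein genes, 3 had a negative log2 fold change of CG over SSS at P5 (median 0.255), and it was positive for 12 of 14 radial glia markers (median 0.272) and 11 of 12 astrocyte markers (median 0.601). Over all tested genes the median at P5 was 0.016. *DBI* also had its higher value below the gyrus in 5 of 5 animals, with ratios of 1.21, 1.76, 1.31, 1.32 and 1.28. *FABP3* had its higher value there in 2 of 5 animals, with ratios of 1.13, 0.866, 0.589, 0.748 and 1.41. The median ratio of *FABP7* was 1.3 at P15 and 1.55 at P5, and that of *DBI* 1.25 at P15 and 1.31 at P5. Whether the regional difference changed with age was not tested, because such a test contains the values used to choose *FABP7*.

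The genes whose levels most resembled that of *FABP7* were mainly those of ribosomal proteins. By Pearson's r of log2 CPM over the 20 libraries, the nearest of 7691 genes averaging at least 10 CPM included *RPS27A* (r = 0.974), the histone gene *H2AC25* (0.969), *RPS25* (0.953) and *RPS3A* (0.951). Across 30 ribosomal protein genes r with *FABP7* had a median of 0.879 (0.268 to 0.974), against 0.0188 over all genes compared. These points share animals, groups and sequencing, so r describes the libraries. *DBI* stood at place 991 with r = 0.521 and *FABP3* at place 3650 with r = 0.0537. With the group means taken out, r with *FABP7* was 0.819 for *DBI* and 0.636 for *FABP3*. Animal 2 at P15, for one, was the lowest of its group for *FABP7* and *DBI* in both regions.

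Likeness in the CG minus SSS difference over the 10 animals gave other genes, namely *TRIM8* (r = 0.9), *TIMM17A* (0.882), *CHN2* (0.88), *ARV1* (0.871) and *MAP2K2* (0.857). These are the highest of 7691 genes over only 10 points, and no test was made of them. The P5 differences among the points are those on which *FABP7* was chosen. These r values are thus a description and do not show that the genes share a regional pattern with *FABP7*. *DBI* (r = 0.417) and *FABP3* (r = 0.448) were at places 750 and 628 in that order. Over 14 radial glia markers r with *FABP7* across the libraries was above 0 for 7 and below 0 for 7, from -0.748 for *FAM107A* to 0.728 for *PTN*.

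Ribosomal protein genes also moved with age. The summed level of 33 of them was 14670 to 31940 CPM in the P15 CG and 14650 to 30670 CPM in the P15 SSS, against 34270 to 52590 CPM in the P5 CG and 30980 to 40380 CPM in the P5 SSS. Of 30 tested, the CG had 17 called lower at P15 and the SSS 12, with none called higher, against 5.72% of all tested genes called lower in the CG and 6.46% in the SSS. Animal 2 at P15 had the lowest sums (14670 CPM in the CG and 14650 CPM in the SSS), as it had the lowest *FABP7*. Counted relative to the ribosomal protein reads of its own library, a scaling added after this likeness was seen, *FABP7* came to 7.861 to 12.67% in the P15 CG, against 13.23 to 16.85% in the P5 CG. In the SSS it came to 6.041 to 10.68% at P15, against 10.12 to 13.58% at P5.

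This scaling subtracts from the age difference of every gene that of the ribosomal sum itself, which was -0.77 in the CG and -0.63 in the SSS on the log2 scale. On that scale *FABP7* was still lower at P15, by a log2 difference of -0.55 in the CG (exact permutation p = 0.00794) and -0.48 in the SSS (exact permutation p = 0.0397). *DBI* was higher at P15 on the same scale (log2 difference 0.73 in the CG and 0.76 in the SSS, exact permutation p = 0.00794 each). So was *FABP3* (1.02 in the CG and 1.00 in the SSS, exact permutation p = 0.00794 each). The size of the age difference thus depends on what the reads are set against, while the lower level of *FABP7* was found on both scales. These permutation p values were not adjusted over all genes, so they are not set beside the FDR of the edgeR tests. A gene with no age difference in CPM comes out higher at P15 on this scale, because the ribosomal sum was lower. The values of *DBI* and *FABP3* on it are therefore a description.

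**Figure D3:**
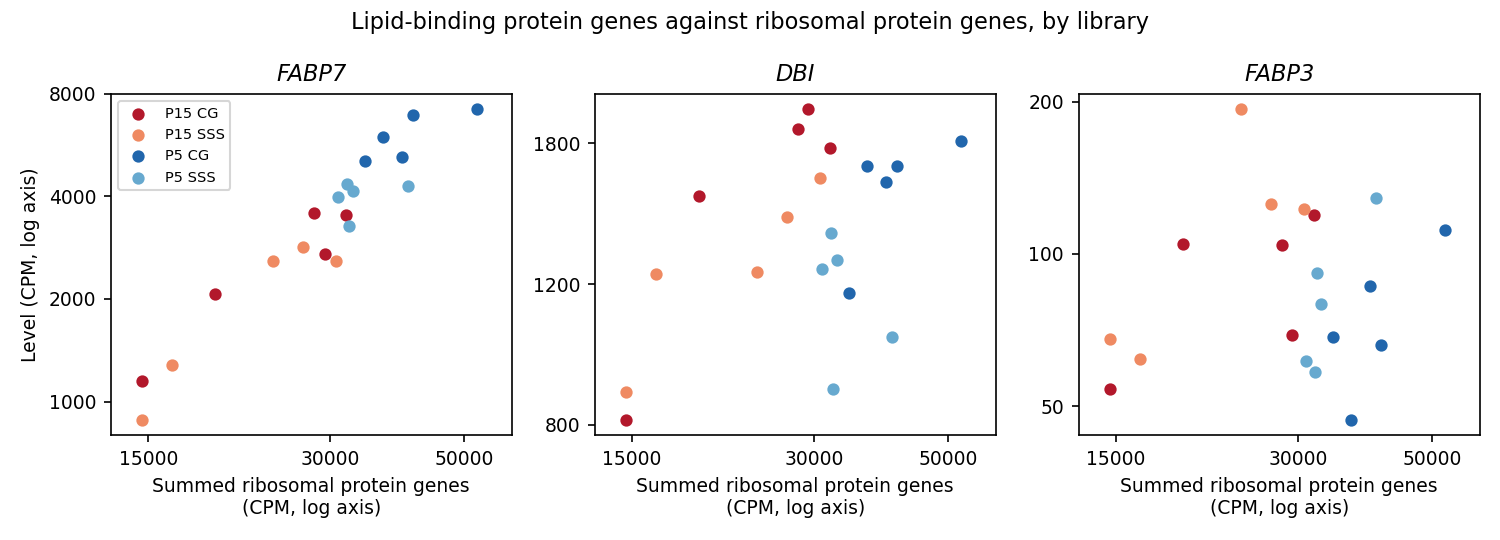
Level of *FABP7*, *DBI* and *FABP3* (vertical axes, CPM, log scale) against the summed level of 33 ribosomal protein genes (horizontal axis, CPM, log scale) in each of the 20 libraries, coloured by group. *FABP7* follows the ribosomal sum (r = 0.958 over 20 libraries), *DBI* does so less closely (0.499), and *FABP3* has r = 0.169.

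The wider families of these proteins were next examined. Of 22 genes listed from the intracellular lipid-binding and acyl-CoA-binding families, 20 had a row and 9 passed the filter, among them *FABP7*, *DBI* and *FABP3*. The one other family gene called with age was *PMP2*, which encodes the myelin P2 protein, a fatty acid-binding protein best known from peripheral myelin. In animals 1 to 5 it had 31.6, 24.4, 33.7, 25.5 and 44.3 CPM in the P15 CG, against 1.74, 1.8, 1.12, 0.29 and 2.21 CPM in the P5 CG. The SSS had 30.8, 24.1, 35.8, 17.1 and 33.3 CPM at P15, against 1.07, 0.344, 1.19, 0 and 0 CPM at P5. Every P15 value of *PMP2* lay above every P5 value of its region, as for 7.3% of all tested genes in the CG and 5.49% in the SSS. Reads were few at P5, where the P5 CG held 23 reads and the P5 SSS 9 reads, against 505 reads in the P15 CG and 449 reads in the P15 SSS. No P5 library held more than 7 reads, so *PMP2* passed the filter on low counts through its P15 libraries alone. Its higher level at P15 and the lack of overlap are thus not free of that filter. Its calls were kept in all 20 alternatives, among them the fit with no such filter. The log2 fold change was 4.46 in the CG (SE 0.564, FDR = 9.5e-07, edgeR) and 5.60 in the SSS (SE 0.623, FDR = 9.16e-08), with 7.39% of all tested genes called higher at P15 in the CG and 8.19% in the SSS. At P15 *PMP2* was not called between regions (31.9 ± 7.98 CPM in the CG and 28.2 ± 7.58 CPM in the SSS, log2 fold change 0.19, SE 0.445, FDR = 0.9997).

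The remaining family genes did not pass the test in any comparison. *CRABP1*, a retinoic acid-binding protein, averaged 5.83 ± 4 CPM in the P15 CG and 2.01 ± 1.89 CPM in the P5 CG (FDR = 0.273), and 9.5 ± 4.77 CPM in the P15 SSS and 3.6 ± 3.12 CPM in the P5 SSS (FDR = 0.293). Of the acyl-CoA-binding genes, the Golgi protein gene *ACBD3* had log2 fold changes with age of 0.04 in the CG and -0.22 in the SSS, the peroxisomal tether gene *ACBD5* 0.73 and 0.08, and *ACBD6* -0.51 and -0.12 (lowest FDR 0.152). Another 11 family genes had too few reads to be tested, from 0 reads for *FABP6*, *RBP2* and *RBP5* to 157 reads for *FABP12* over the 20 libraries.

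Genes that take up, make, burn, sense or export fatty acids were read from 9 lists, which after *FABP7*, *DBI*, *FABP3* and *FABP5* were set aside held 130 genes, 100 of them tested. In the CG 13 were higher and 4 lower at P15 (17% called, against 13.1% of all tested genes), with a median log2 fold change of 0.32 against -0.01 over all genes. In the SSS 23 were higher and 4 lower (27% called, against 14.6%), with a median of 0.42 against -0.01. Between CG and SSS edgeR called 0 of the 100 at P15 (2 had an unadjusted p under 0.05, and DESeq2 and limma-voom called 0) and 0 at P5 (12 had an unadjusted p under 0.05, DESeq2 called 2 and limma-voom 0). Under the other scalings, filters, tests and choices of libraries, 11 of the 17 calls in the CG and 21 of the 27 in the SSS were never lost and no direction turned round.

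Among 12 tested genes of uptake and activation, the CG had 1 call and the SSS 2, all higher at P15. Over all tested genes 7.39% were called higher in the CG and 8.19% in the SSS, so the count of 1 in 12 is near that background. *MFSD2A*, the transporter that brings docosahexaenoic acid into the brain as a lysolipid, averaged 25.8 ± 8.8 CPM in the P15 CG and 6.57 ± 4.21 CPM in the P5 CG (log2 fold change 1.97, SE 0.469, FDR = 0.0041). In the SSS its log2 fold change was 0.52 (FDR = 0.501). *ACSL6*, an acyl-CoA synthetase that activates docosahexaenoic acid, averaged 204 ± 24.9 CPM in the P15 SSS and 111 ± 34.8 CPM in the P5 SSS (0.88, SE 0.221, FDR = 0.00593). Lipoprotein lipase, *LPL*, was higher in the P15 SSS from few reads (310 against 67; FDR = 0.0434), a call lost under 9 of 20 alternatives, among them the fit without the P15 SSS library of animal 4 and those without any 1 of P15 animals 1 to 4 or P5 animals 1 to 3 (FDR up to 0.147).

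Synthesis and desaturation, with 18 tested genes, had 3 calls in the CG and 5 in the SSS, all higher at P15, where 7.39% of all tested genes were called higher in the CG and 8.19% in the SSS. *ACACA*, the enzyme that commits acetyl-CoA to fatty acid synthesis, had 211 ± 31.8 CPM in the P15 CG and 111 ± 14 CPM in the P5 CG (log2 fold change 0.93, FDR = 0.000306), and its SSS log2 fold change was 0.96 (FDR = 0.000194). *ELOVL5*, an elongase gene (0.84 in the CG, 0.70 in the SSS), and *SCD*, the stearoyl-CoA desaturase gene (0.60 in the CG, 0.68 in the SSS), were called in both regions, with *SCD* in the CG at FDR = 0.051 without P5 animal 4. *FADS2*, the desaturase that opens the path to long polyunsaturated fatty acids, had 226 ± 52.3 CPM in the P15 SSS and 98 ± 24.1 CPM in the P5 SSS (1.20, FDR = 0.000408), while its CG log2 fold change of 0.59 was not called (FDR = 0.0876). *HACD1*, a dehydratase of fatty acid elongation, was called in the SSS (1.45, FDR = 0.0232), but not without P15 animals 1 or 3 or P5 animals 2 or 5 (FDR up to 0.0747).

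Fatty acid oxidation, with 21 tested genes, had 2 calls in the CG and 5 in the SSS, again all higher at P15. The CG count is near the 7.39% called higher over all tested genes, and in the SSS that share was 8.19%. *CPT1A*, which admits acyl groups to mitochondria, averaged 62.5 ± 16.2 CPM in the P15 CG and 35.2 ± 4.54 CPM in the P5 CG, and 51.5 ± 11.2 CPM in the P15 SSS and 23.5 ± 6.98 CPM in the P5 SSS (FDR = 0.0328 in the CG and 0.00365 in the SSS). The CG call was lost with no filter on low counts and without P15 animals 1, 2 or 3 or P5 animals 2, 4 or 5 (FDR up to 0.141). The mitochondrial genes *HADHB* (log2 fold change 0.86), *ACADM* (0.79) and *ACADL* (2.82, from 150 reads at P15 and 20 reads at P5) were called in the SSS, that of *ACADL* not without P15 animals 2, 3 or 5 or P5 animals 1, 2, 3 or 5 (FDR up to 0.0966). With so few reads at P5, *ACADL* passed the filter on low counts largely through its P15 libraries. Its higher level at P15 is thus not free of that filter. *PPARGC1A*, a coactivator of mitochondrial and oxidative genes, had the lowest FDR on the list of lipid-sensing receptors and cofactors, at 140 ± 8 CPM in the P15 CG and 42.4 ± 14 CPM in the P5 CG (log2 fold change 1.73, FDR = 1.9e-05) and at 130 ± 39.3 CPM in the P15 SSS and 48.4 ± 16.8 CPM in the P5 SSS (1.43, FDR = 0.000218). The fatty acid receptor gene *PPARA* averaged 8.83 to 10.9 CPM in the 4 groups and was not called, and *RXRB*, which encodes a partner of such receptors, was lower in the P15 CG (-1.03, FDR = 0.0433). That call was lost with library size scaling and without P15 animals 1, 2, 3 or 5 or P5 animals 1, 2 or 4 (FDR up to 0.175).

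Regulators linked to *Fabp7* transcription in rodents or in human glioma cells did not move as a block. The neural POU-domain factor gene *POU3F2* was lower at P15, at 7.16 ± 1.6 CPM in the P15 CG and 32.3 ± 16 CPM in the P5 CG (log2 fold change -2.16, SE 0.478, FDR = 0.00204) and at 6.78 ± 3.42 CPM in the P15 SSS and 30.6 ± 14.1 CPM in the P5 SSS (-2.15, SE 0.479, FDR = 0.00206). Its P15 values lay below its P5 values in both regions. *NFIA*, a factor of gliogenesis, was higher at P15 (0.62 in the CG, FDR = 0.0239, and 0.76 in the SSS, FDR = 0.00501), although the CG call was lost without P15 animals 2 or 3 or P5 animals 2, 4 or 5 (FDR up to 0.0848), and the Notch target *HEY1* was higher in the P15 SSS (1.83, FDR = 0.0008). The other 12 of 14 tested regulators in the CG and 11 of 14 in the SSS were not called (13.1% and 14.6% of all tested genes were), *PAX6* among them (log2 fold change -0.06 in the CG and 0.48 in the SSS).

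Of 10 tested partners and receptors of the *DBI* product, 1 was called with age in the CG and 3 were called in the SSS, against 13.1% and 14.6% of all tested genes. *TSPO*, the mitochondrial binding partner, was called lower in the P15 SSS from 5 reads against 92 (FDR = 0.0148), though not without P15 animal 3 or P5 animal 2 (FDR up to 0.0632), and was not called in the CG (FDR = 0.377). With so few reads at P15, *TSPO* passed the filter on low counts largely through its P5 libraries. Its lower level at P15 is thus not free of that filter.

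Genes of lipoprotein and lipid export held the largest share of calls, 5 of 9 in the CG and 7 of 9 in the SSS, against 13.1% and 14.6% over all tested genes. *APOE*, the main lipid carrier of the brain, averaged 107 ± 29.9 CPM in the P15 CG and 11.2 ± 4.3 CPM in the P5 CG (log2 fold change 3.26, FDR = 9.1e-09), and 116 ± 26.4 CPM in the P15 SSS and 11.5 ± 5.45 CPM in the P5 SSS (3.35, FDR = 6.05e-09). The carrier gene *APOD* and the receptor genes *LRP1* and *VLDLR* were also higher at P15 in both regions, by log2 fold changes of 1.09 to 1.65 (*VLDLR* in the CG was not called without P15 animal 3 or P5 animal 5, FDR up to 0.068), and the carrier gene *CLU* was called in the SSS (1.34, FDR = 0.00114). The reelin and *APOE* receptor gene *LRP8* was lower at P15, with 72.8 ± 16.1 CPM in the P15 CG and 133 ± 17.4 CPM in the P5 CG (-0.87, FDR = 0.00676) and 68.6 ± 18 CPM in the P15 SSS and 136 ± 32.3 CPM in the P5 SSS (-0.99, FDR = 0.00203).

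**Figure D4:**
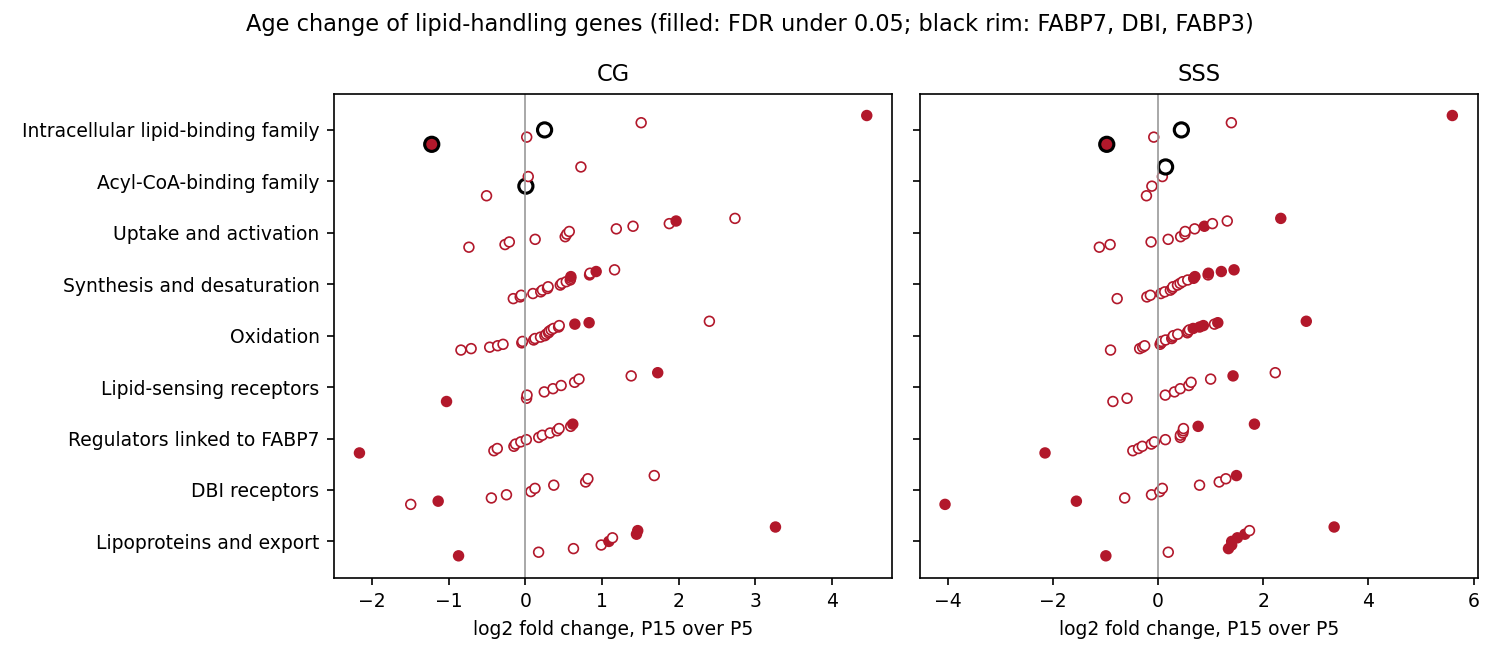
Log2 fold change of P15 over P5 (horizontal axes, with a wider range in the SSS panel) for each tested gene of the 9 lists, CG on the left and SSS on the right. Filled points have an FDR under 0.05, and black rims mark *FABP7*, *DBI* and *FABP3*. *FABP7* is the filled point at -1.22 in the CG and -0.98 in the SSS in the top row, and *PMP2* is the filled point at 4.46 and 5.60 in the same row.

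Markers of several cell types moved with age beside these genes. Their counts stand against 7.39% of all tested genes called higher and 5.72% called lower in the CG, and 8.19% higher and 6.46% lower in the SSS. Summed radial glia markers (14 genes) came to 7753 to 8858 CPM in the P15 CG and 7384 to 8287 CPM in the P15 SSS, against 5764 to 6615 CPM in the P5 CG and 4594 to 6091 CPM in the P5 SSS, so that this sum was higher where *FABP7* was lower. The markers did not move as a block, with positive log2 fold changes for 7 of 14 in the CG (median 0.133) and 8 of 14 in the SSS (median 0.315). Those called were *FAM107A*, *LIFR*, *PTPRZ1* and *SLC1A3* (higher at P15 in both regions), *GLI3* (higher in the SSS) and *CDH2* (lower in both). Astrocyte markers (12 genes) came to 4788 to 8564 CPM in the P15 CG and 5122 to 7896 CPM in the P15 SSS, against 1223 to 1668 CPM in the P5 CG and 839 to 1489 CPM in the P5 SSS, with 9 of 12 called higher in each region. Oligodendrocyte lineage markers (10 genes) came to 912.7 to 3758 CPM in the P15 CG and 1021 to 3444 CPM in the P15 SSS, against 244.4 to 370 CPM in the P5 CG and 216.3 to 558.2 CPM in the P5 SSS, with 8 of 9 tested called higher in each. Among the 8, *MAG* had 0 reads in either P5 group, against 459 in the P15 CG and 182 in the P15 SSS. It passed the filter on low counts through its P15 libraries alone, so its calls are not free of that filter.

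Microglia markers were called higher for 5 of 8 in each region, and endothelial and mural markers for 2 of 10. Neuron markers (11 genes) came to 852.8 to 1075 CPM in the P15 CG and 1069 to 1185 CPM in the P15 SSS, against 1659 to 2708 CPM in the P5 CG and 1845 to 2926 CPM in the P5 SSS, and 7 of 10 tested were called lower in the CG and 8 in the SSS. Intermediate progenitor markers were called lower for 3 of 5 in each region, and markers of proliferating cells for 4 of 11 in the CG and 1 of 11 in the SSS. Among the 3, *INSM1* had 6 reads in the P15 CG and 3 in the P15 SSS. It passed the filter on low counts through its P5 libraries alone, so its calls are not free of that filter. Interneuron markers moved both ways, with 2 called higher and 3 lower of 9 in each region. The part of these shifts in the age differences of *FABP7*, *PMP2* and the lipid-handling genes was not tested.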

How the data were processed

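The authors captured the tissue by laser and amplified its RNA by SPIA, which adds no molecular identifiers. Trimming used Trimmomatic 0.38, quality control FastQC 0.11.9, alignment STAR 2.7.9a with the genome MusPutFur1.0, and counting featureCounts. The values they deposited are raw counts per gene, 1 column per library, with no normalisation. The strand setting was not given in the sources used here. Multi-mapped reads stayed unassigned, which can lower genes with near-identical copies, such as those of ribosomal proteins. The authors' own tests used edgeR 3.42.4 under R 4.3.1. All 20 sample columns were used and 0 were left aside.

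Line by line, the deposited symbols gave 33 ribosomal protein genes a median of 1.39 CPM, and with each symbol at the sorted rank of its identifier 703 CPM. The second pairing was used, which names 17208 of 32057 identifiers.

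Tests were run in R 4.3.3 with edgeR 4.0.16 (older quasi-likelihood test), limma 3.58.1 and DESeq2 1.42.0, and drawn with Python 3.11.15, pandas 2.3.3 and matplotlib 3.10.9. The filter was filterByExpr (minimum count 10, minimum total 15), libraries were scaled by TMM, and FDR is the Benjamini-Hochberg adjusted p over 12669 genes. A gene read at 1 age only can pass this filter. Ages were compared with 4 group means in 1 fit of all libraries, and regions at P15 with the animal as a block. Libraries of 1 animal carry the same animal name. Their residuals correlated with a median of 0.141 (0.046 to 0.246), against -0.0466 (-0.16 to 0.133) for different animals. Fold changes used a prior count of 0.125 and log2 CPM one of 2. The planned ratio of *FABP5* to *FABP7* could not be computed, so the ratio tests were adjusted over the tests of *DBI* alone. The scripts were tested on simulated counts.

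The genes, lists and tests were chosen with earlier results of these data known. Named genes are the chosen genes, each tested gene of both protein families, the called genes of other lists (the 6 with the lowest p where more were called), and the 5 genes most like *FABP7* by each measure of likeness. *PAX6*, *PPARA*, *EOMES*, *SST* and the radial glia markers set beside *FABP7* were named after their values were seen. Some genes that this rule selects are not reported here. Alternatives were another scaling, another filter, another test, fits without a library or animal, and fits with and without the block.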

Additional observations from a re-analysis of the deposited data

How the results depend on the processing

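*FABP7* kept its lower level at P15 under every other scaling, filter, test and choice of libraries tried, and its call wherever all genes were tested. Relative to ribosomal protein genes no FDR over all genes was computed. There the log2 difference of *FABP7* was -0.551 in the CG (exact permutation p = 0.00794) and -0.483 in the SSS (exact permutation p = 0.0397). On the CPM scale its log2 fold change was -1.36 to -1.03 in the CG and -1.11 to -0.78 in the SSS when 1 animal was left out (highest FDR 0.0425, in the SSS without P15 animal 3), and with the animal as a random replicate block it was -1.33 and -1.12. For CG against SSS at P15, *FABP7* ranged from 0.30 to 0.45 with 1 animal left out, never called. It passed with no low-count filter (0.379), with DESeq2 (0.368) and with limma-voom (0.363), and was 0.357 (FDR = 1) with no replicate block. The near-zero age difference of *DBI* in the CG changed sign, to -0.044 with limma-voom, -0.045 with the random replicate block, and -0.083 to 0.176 with 1 animal left out. Relative to ribosomal protein genes, a choice made after seeing the data, *DBI* was higher at P15 by 0.725 (CG) and 0.756 (SSS) and *FABP3* by 1.019 (CG) and 1.005 (SSS). These values had no FDR over all genes and include the lower ribosomal sum at P15. The cause was not tested. List genes called with age numbered 12 to 22 in the CG and 21 to 26 in the SSS with 1 animal left out. Between regions at P5 none was called with edgeR, 1 with no low-count filter and 2 with DESeq2. Over all genes, calls between regions ranged from 0 to 18 at P15, against 2 in the reported fit, and from 0 to 106 at P5, against 5, whereas calls between ages stayed within 1.5 times. Leaving 1 animal out moved the log2 difference of the *DBI* to *FABP7* ratio between 1.215 and 1.359 in the CG and 1.104 and 1.366 in the SSS. Few reads limit *PMP2*, *ACADL* and *MAG* at P5, *INSM1* at P15, *TSPO* in the P15 SSS and the untested family genes. Counting error alone is covered where reads are given.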
